A study of Mus musculus with 6 samples.

Results

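Ribosome biogenesis factors are the proteins that transcribe, modify, cut, fold and export the RNA of the ribosome's subunits. A fixed list of 47 such genes was followed here in mouse bone marrow-derived mast cells (BMMCs), and the members were found by their symbols in the array annotation. Of the 47, 44 had a row naming them alone, among 30102 genes measured in all. The rows for Nop56, Gnl3 and Ebna1bp2 name other genes too, so these 3 members have no value here. All 44 had a mean signal above background, a log2 level of 6.05 that 95% of the chemosensory receptor genes lie below, so no member was lost to a filter on low values.

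BMMCs are primary cells, grown here from the femoral marrow of C57BL/6J mice with interleukin 3 and a supernatant holding stem cell factor, and matured for 6 weeks. The ionomycin group received 1 µg/mL of ionomycin, a calcium ionophore that makes mast cells degranulate, in Tyrode's buffer for 1 h. The naive group had the buffer alone for the same time. Both groups were washed and kept in culture medium for a further 3 h before RNA was taken, 4 h after the start. Each group had 3 whole-transcript Affymetrix arrays of total RNA, and the question was which transcripts differ at this later time. The labels do not say whether a replicate is its own culture or mouse, so the p-values cover the spread among these arrays, and that spread may be technical.

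The work of ribosome assembly starts in the nucleolus. RNA polymerase I makes one long precursor of the ribosomal RNAs. Small nucleolar ribonucleoproteins (snoRNPs) then guide methylation (box C/D) and pseudouridylation (box H/ACA) of that precursor. The small subunit processome and the large subunit assembly factors fold and cut it while ribosomal proteins are added. These genes are known as a group whose transcription follows cell growth, and the transcription factor MYC is a well known activator of many of them.

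All values are log2 signals as processed by the authors. The 10 mast cell markers were all above background, with 6-array means from 8.05 to 14.24, so the cells carry the transcripts of their label. The 44 factors had means from 7.36 (Polr1e) to 11.67 (Npm1) with a median of 8.86, against a median of 6.78 for all genes; signals of different genes on an array are not measures of relative abundance. The replicate 1 arrays stood apart in both groups: r across genes was 0.985 and 0.984 between naive replicate 1 and naive replicates 2 and 3, against 0.997 between replicates 2 and 3. In the ionomycin group these values were 0.991, 0.989 and 0.998. Over all genes 87 were higher and 18 lower after ionomycin (limma, adjusted p under 0.05), 82.9% of the calls being higher, a share that became 68.3% when arrays were centred on their medians.

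None of the ribosome biogenesis factors passed the test between ionomycin and naive cells. With limma, 0 of 44 passed at an adjusted p under 0.05, where 0.349% of all genes did (0.289% as higher and 0.0598% as lower). With the replicate number as a block, although numbers 2 and 3 are not shown to pair the arrays, it was again 0 of 44. In that fit 0.505% of all genes passed (0.395% as higher and 0.11% as lower). At an unadjusted p under 0.05, 3 were higher (Rrp12, Nop16 and Rrp9) and 0 lower, against 15.6% of all genes in either direction. With the block, 3 were higher and 2 lower at that unadjusted level, against 25.4% of all genes. The 44 differences ran from -0.32 (Nop2) to 0.45 (Nop16) on the log2 scale, 22 above 0 and 22 below. Their median was -0.0012, where that of all genes was 0.05. For the 11328 genes whose mean signal lies within the factors' range the median was -0.02. The factors' median was 0.02 with quantile normalization, which turned its sign, and -0.07 with arrays centred on their medians. In size 31 of the 44 were under 0.2, as were 23319 of all 30102 genes and 6996 of the 11328 within the factors' signal range. The members' moderated standard errors (SE) had a median of 0.15, against 0.08 over all genes.

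**Figure D1:**
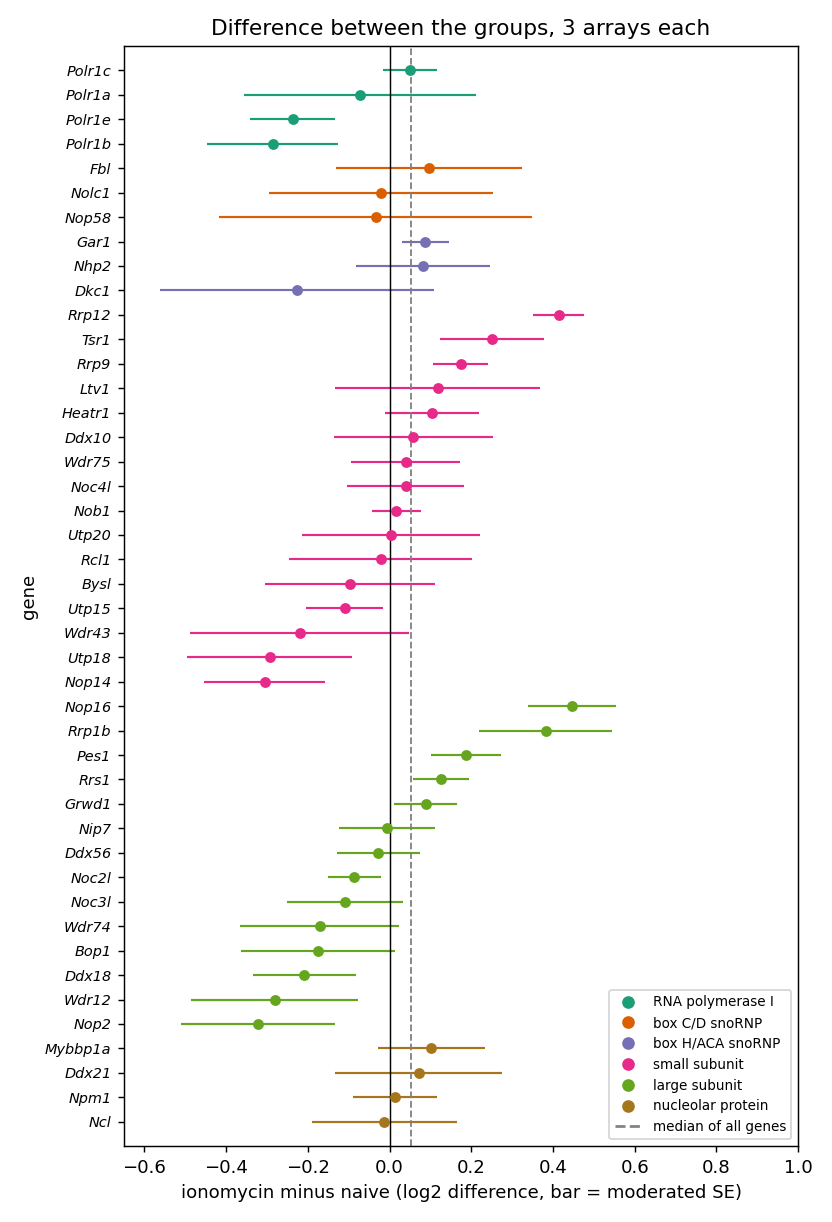
Log2 difference, ionomycin minus naive, of each of the 44 measured factors (point) with its moderated SE (bar), 3 arrays per group; colours give the role and the dashed line is the median of all genes, 0.05. The points lie on both sides of 0, from -0.32 for Nop2 to 0.45 for Nop16, and none passed the adjusted threshold.

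In the naive group the larger spread was between replicate 1 and the other arrays. The factors' median SD there was 0.27, against 0.11 over all genes. In the ionomycin group it was 0.09, the same as over all genes. Naive replicate 1 was the highest of the 3 naive arrays for 42 of the 44 factors, against 27.8% of all genes. Ionomycin replicate 1 was the highest of its group for 31 of the 44, against 33.3% of all genes, and the lowest for 8, against 47.4%. For 30 of the 44 replicate 1 was the highest array in both groups, against 18.2% of all genes. Naive replicate 1 stood above the mean of naive replicates 2 and 3 by a median of 0.45 (1.37-fold), while the same median over all genes was -0.07. In the ionomycin group the medians were 0.10 (1.07-fold) and -0.03. These are descriptions with no test, since 1 array is set against 2 in each group.

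**Figure D2:**
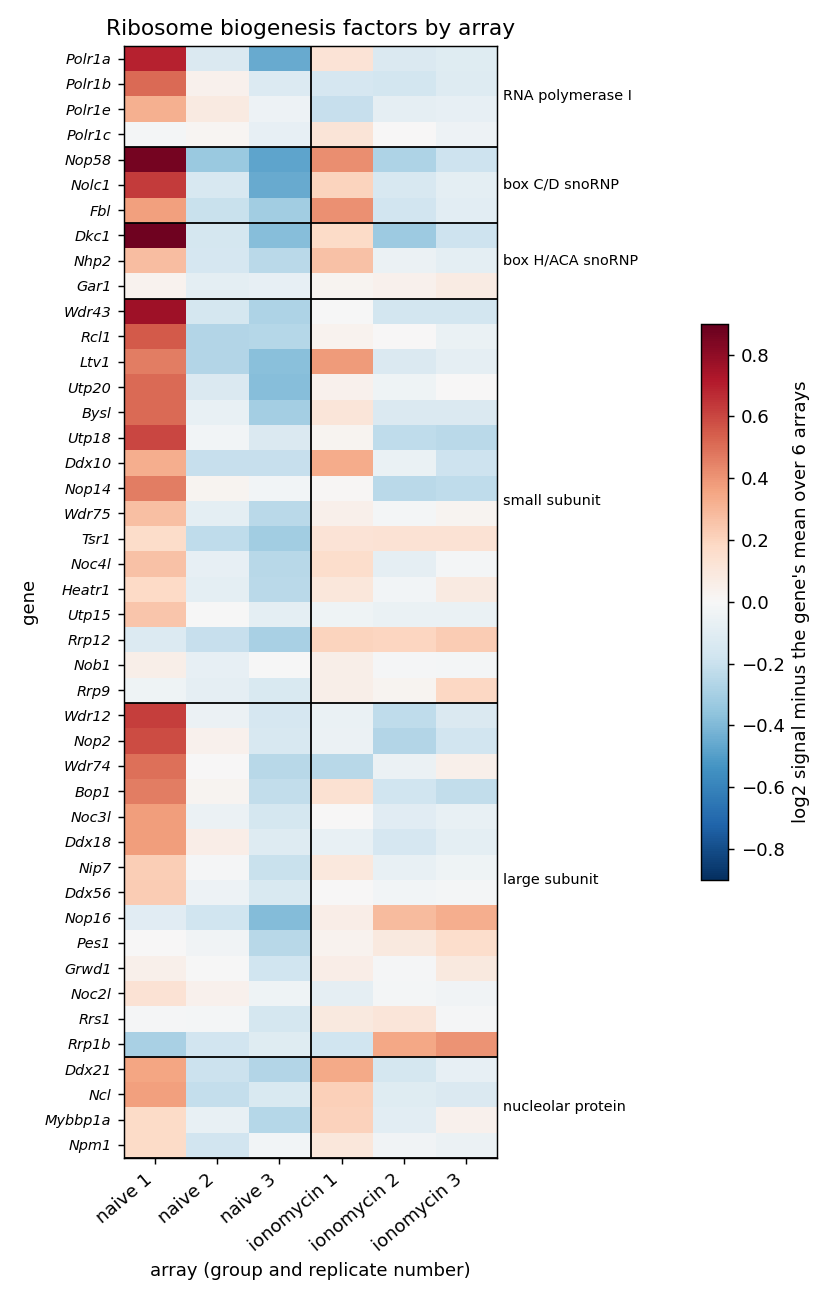
Log2 signal of each factor in each of the 6 arrays, minus that gene's mean over the 6 arrays (colour), with genes grouped by role and arrays by group and replicate number. Naive replicate 1 is the reddest column, and 42 of 44 genes have their highest naive value there.

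The excess in replicate 1 was read against genes of like signal and under other scalings. Of the 11328 genes whose mean lies within the factors' range, naive replicate 1 was highest for 44.7% and ionomycin replicate 1 for 47.5%. With arrays centred on their medians, naive replicate 1 was highest for 43 of the 44 and ionomycin replicate 1 for 38. Centring raised these shares over all genes too, to 46.1% and 52.0%. With quantile normalization the counts were 40 and 30, against 38.6% and 40.4% of all genes. The median excess in the naive group was 0.55 after centring and 0.41 after quantile normalization, and in the ionomycin group 0.18 and 0.07. The direction of the medians was thus the same under these 3 scalings.

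The excess was larger in naive than in ionomycin cells for 43 of the 44 factors, with Polr1c the exception, against 42.7% of all genes and 48.0% of those within the factors' signal range. Across the 44 genes the naive and ionomycin excess had a Pearson r of 0.646 and a Spearman rho of 0.640, where all genes gave 0.711 and 0.527. Genes within the factors' signal range gave 0.717 and 0.654. Genes are not independent replicates, all points come from the same 6 arrays, and the values are a description. The difference between the groups varied with the replicate number. This restates the excess in part. Where the naive excess is the larger, the difference at number 1 lies below the mean of numbers 2 and 3 by construction. Ionomycin was above naive for 11 of 44 factors at number 1, 24 at number 2 and 37 at number 3, against 65.7%, 60.4% and 56.6% of all genes. Among the 11328 genes within the factors' signal range it was above naive for 5593, 4976 and 5022. The factors' medians at the 3 numbers were -0.18, 0.01 and 0.17, where those of all genes were 0.08, 0.05 and 0.03. Those of the genes within the signal range were -0.006, -0.04 and -0.03. With arrays centred on their medians the factors' medians were -0.26, -0.07 and 0.13, so the sign at number 2 turned. With quantile normalization they were -0.19, 0.03 and 0.20. For 14 of the 44 the sign was below 0 at number 1 and above it at both other numbers, against 6.75% of all genes. Ionomycin was above naive at all 3 numbers for 8 of the 44, against 35.8% of all genes, and below it at all 3 for 5, against 16.8%. Of the genes within the factors' signal range, 24.7% were above at all 3 numbers and 32.2% below.

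**Figure D3:**
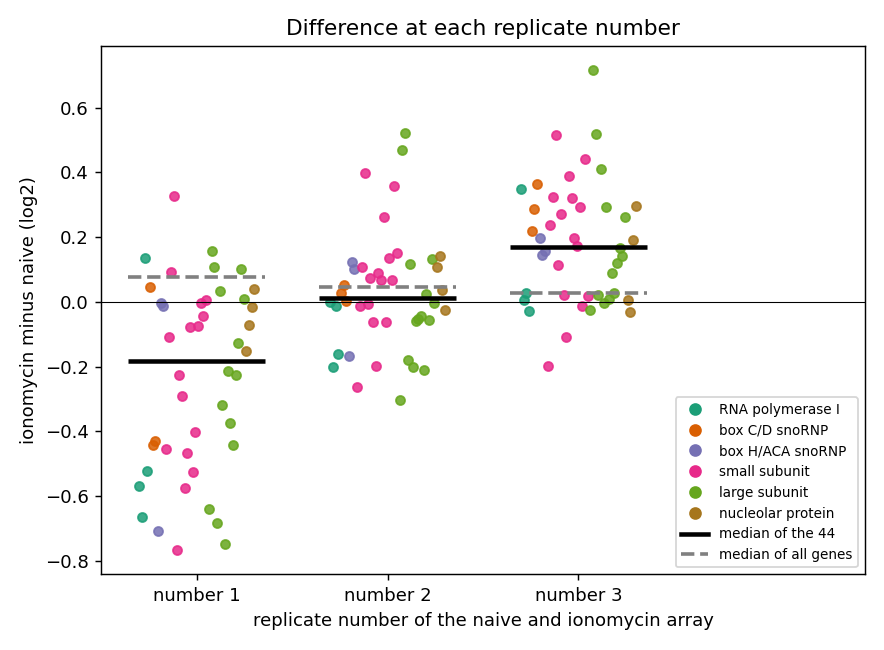
Log2 difference, ionomycin minus naive, of each factor (point, coloured by role) between the arrays that share a replicate number. Black bars are the medians of the 44, at -0.18, 0.01 and 0.17; dashed bars are the medians of all genes, at 0.08, 0.05 and 0.03.

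Leaving out naive replicate 1 alone moved the factors' median difference from -0.0012 to 0.15, while that of all genes went from 0.05 to 0.04. Without any 1 of the 6 arrays, 0 members passed. Without both replicate 1 arrays, which leaves 2 arrays per group, the median was 0.11 and 4 of the 44 passed as higher (limma, Nop16, Rrp12, Rrp1b and Tsr1), where 2.83% of all genes passed (1.41% as higher), and 0 passed as lower, where 1.43% of all genes did. At an unadjusted p under 0.05 8 were higher and 1 lower there, against 22.2% of all genes. Naive replicates 2 and 3 also differed. Replicate 2 was above replicate 3 for 37 of the 44 in naive cells, with a median of 0.12, but for 13 of the 44 in ionomycin cells, against 49.3% and 51.7% of all genes. Of the genes within the factors' signal range these shares were 61.6% and 55.8%, with a median of 0.04 in naive cells.

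**Figure D4:**
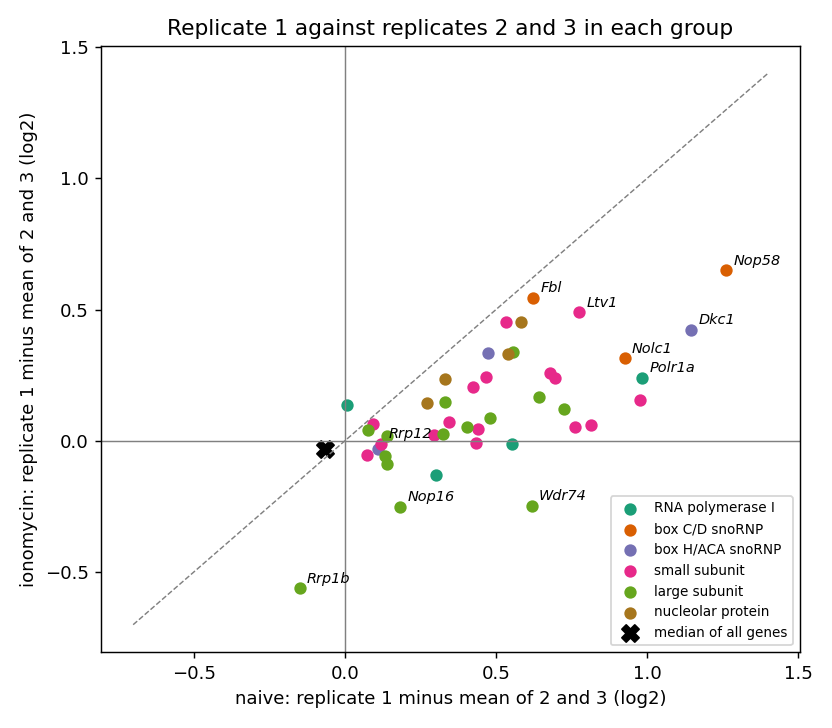
Replicate 1 minus the mean of replicates 2 and 3 (log2) in the naive group (x axis) and the ionomycin group (y axis), 1 point per factor, coloured by role; the cross is the median of all genes and the dashed line marks equal values. All points but Polr1c lie below the dashed line, from Rrp1b at -0.15 and -0.56 to Nop58 at 1.26 and 0.65.

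Subunits of RNA polymerase I come first in the pathway. Polr1a, the largest catalytic subunit, was at 9.14, 8.32 and 7.99 in naive replicates 1, 2 and 3 and at 8.57, 8.32 and 8.34 in the ionomycin replicates. The naive array 1 value was the highest of the 6 and naive array 3 the lowest, so the groups overlapped throughout (difference -0.07 ± 0.28 SE, limma adjusted p = 0.904). Polr1b, which forms the catalytic core with Polr1a, was at 8.24, 7.77 and 7.61 in naive and 7.58, 7.57 and 7.61 in ionomycin arrays. The 3 ionomycin values lie together at the level of naive replicate 3 (difference -0.29 ± 0.16, limma adjusted p = 0.399), and without naive replicate 1 the difference was -0.10. Polr1e, a subunit that acts at initiation, was at 7.68, 7.44 and 7.31 in naive and 7.15, 7.28 and 7.28 in ionomycin arrays. It was the single factor with all ionomycin arrays below all naive arrays, which 7.31% of all genes showed (difference -0.24 ± 0.10, limma adjusted p = 0.329, and -0.14 without naive replicate 1). Polr1c, which RNA polymerase III shares, was at 9.10, 9.15 and 9.05 in naive and 9.24, 9.13 and 9.08 in ionomycin arrays, with no array apart from the others (0.05 ± 0.07, limma adjusted p = 0.718).

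The 3 genes placed with the box C/D particles, Nop58, Nolc1 and Fbl, had a median excess of naive replicate 1 of 0.93. This was the highest of the 6 role medians, but it is the value of Nolc1, whose placing in this class sets the ranking. Dkc1, Polr1a and Wdr43 of other roles lay above Nolc1 and Fbl. No test compared the roles. Nop58, a core protein of these particles, was at 11.05, 9.86 and 9.72 in naive and 10.61, 9.92 and 10.01 in ionomycin arrays. In each group replicate 1 was well above the other two, by 1.26 (2.40-fold) in naive and 0.65 (1.57-fold) in ionomycin cells, and the group means differed by -0.03 ± 0.38 SE (limma adjusted p = 0.968). Fbl, the fibrillarin gene that encodes the methyltransferase of these particles, was at 10.05, 9.48 and 9.37 in naive and 10.09, 9.51 and 9.58 in ionomycin arrays. Here the excess was alike in the 2 groups, 0.62 and 0.55, and the group difference was 0.10 ± 0.23 (limma adjusted p = 0.841). Nolc1, a nucleolar phosphoprotein that binds snoRNPs, was at 9.75, 8.98 and 8.67 in naive and 9.32, 8.98 and 9.03 in ionomycin arrays. The group means differed by -0.02, and naive replicates 1 and 3 were the highest and lowest of the 6 arrays.

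Of the 3 box H/ACA proteins none passed between the groups. Dkc1, the pseudouridine synthase dyskerin, was at 9.74, 8.70 and 8.48 in naive and 9.03, 8.53 and 8.68 in ionomycin arrays, an excess of replicate 1 of 1.15 and 0.42. The group difference of -0.23 ± 0.33 SE (limma adjusted p = 0.742) turned to 0.16 without naive replicate 1. Gar1, a small core protein of the same particles, was at 9.12, 9.01 and 9.02 in naive and 9.12, 9.13 and 9.17 in ionomycin arrays, with an excess of 0.11 in the naive group and -0.03 in the ionomycin group. Nhp2, another core protein, had an excess of 0.47 and 0.33. These excesses, from 0.11 to 1.15 in naive cells, are descriptions with no test between the genes.

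**Figure D5:**
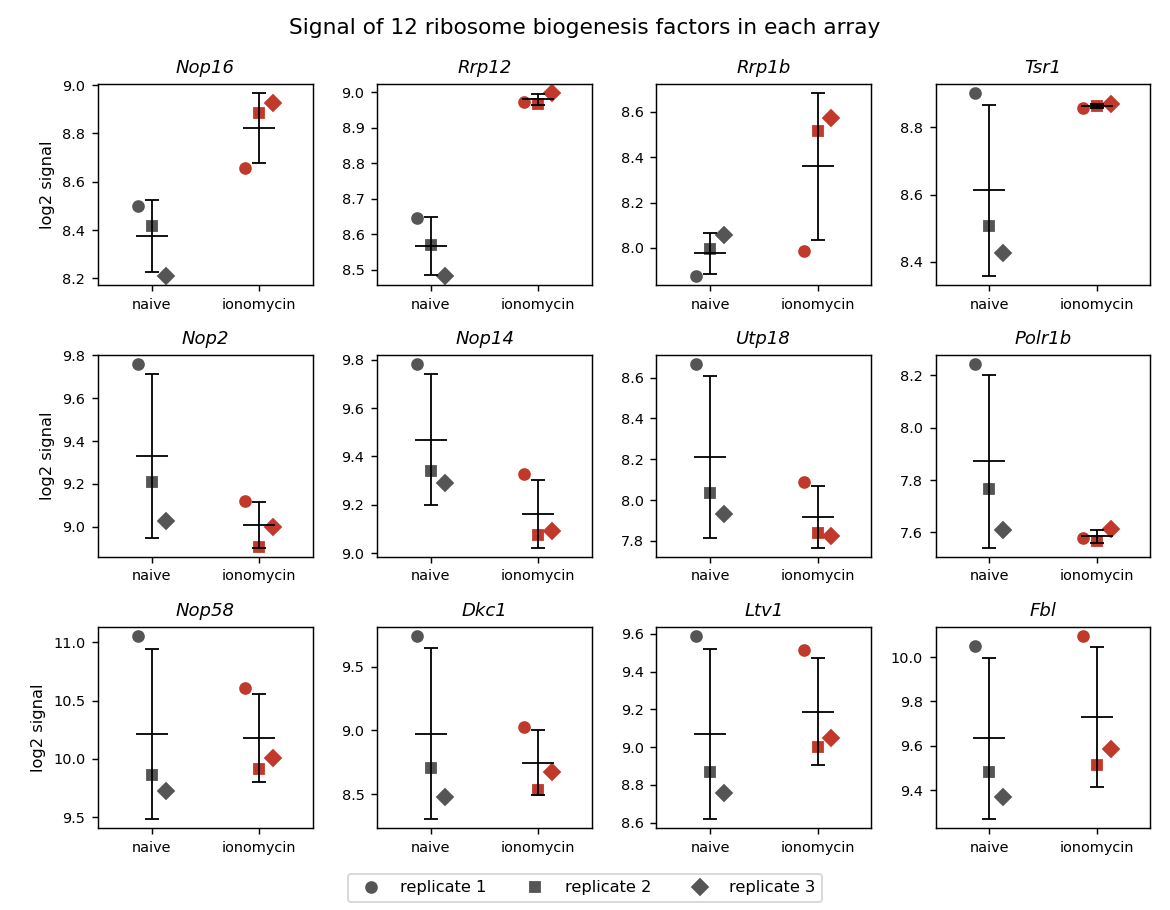
Log2 signal of 12 factors in each array, with symbols for the replicate number, horizontal bars for group means and error bars for the SD, n = 3 per group; each panel has its own scale. Rrp12 and Nop16 have all ionomycin arrays above all naive arrays, while for Nop58, Dkc1, Ltv1 and Fbl replicate 1 is the highest array of each group.

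Among the 16 factors of small subunit assembly, 10 had a difference above 0 and 6 below, and naive replicate 1 was the highest naive array in all 16. Rrp12, a repeat protein that takes part in export of both precursor subunits, was at 8.65, 8.57 and 8.48 in naive and 8.97, 8.97 and 9.0 in ionomycin arrays. All ionomycin arrays were above all naive arrays, a pattern of 18.9% of all genes and of 4 of the 44 factors (Rrp12, Rrp9, Nop16 and Pes1). Its difference was 0.41 ± 0.06 SE, 1.33-fold, with 0.33, 0.40 and 0.52 at the 3 replicate numbers. It came closest to the threshold, with a limma adjusted p of 0.0731, 0.0807 with the replicate block, 0.0227 with a block of 2 levels that sets replicate 1 against 2 and 3, and 0.0318 without both replicate 1 arrays. After quantile normalization it passed too, as the 1 factor of the 44, where 0.382% of all genes passed (limma). With array weights 4 of the 44 passed as higher (Rrp12, Nop16, Rrp1b and Tsr1) and 0 as lower. Over all 30102 genes 2240 passed as higher and 1654 as lower in that fit, 12.9% in either direction. With that block of 2 levels Rrp12 was the 1 factor of the 44 that passed, as higher, where 4.72% of all genes passed (2.25% as higher and 2.47% as lower). At an unadjusted p under 0.05 5 factors were higher and 3 lower with it, against 29.3% of all genes.

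Tsr1, a late factor of small subunit maturation that resembles a GTPase, was at 8.90, 8.51 and 8.43 in naive and 8.86, 8.86 and 8.87 in ionomycin arrays. The ionomycin values were nearly identical and naive replicate 1 was at their level, so the difference was 0.25 ± 0.13 SE (limma adjusted p = 0.365), and 0.40 ± 0.06 without both replicate 1 arrays (limma adjusted p = 0.0427). Without naive replicate 1 or 3 alone it was 0.40 and 0.16, and Tsr1 passed in neither fit. Rrp9, a protein of the snoRNP that starts small subunit processing, was at 8.40, 8.36 and 8.30 in naive and 8.49, 8.46 and 8.62 in ionomycin arrays. It had no overlap between the groups at a small difference of 0.17 ± 0.07 (limma adjusted p = 0.302).

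Nop14, a component of the processome, was at 9.78, 9.34 and 9.29 in naive and 9.33, 9.08 and 9.09 in ionomycin arrays. Its ionomycin replicate 1 lay between naive replicates 2 and 3, and the other ionomycin arrays lay below all naive arrays (difference -0.31 ± 0.15 SE, limma adjusted p = 0.354). Without naive replicate 1 the Nop14 difference was -0.15. Utp18, a WD-repeat protein of the processome, was at 8.66, 8.04 and 7.93 in naive and 8.09, 7.84 and 7.82 in ionomycin arrays. At each of the 3 numbers Utp18 was lower in the ionomycin array, by a mean of -0.29 ± 0.20 (limma adjusted p = 0.476), which was -0.066 without naive replicate 1. Ltv1, a factor of late small subunit assembly, was at 9.59, 8.87 and 8.76 in naive and 9.51, 9.0 and 9.05 in ionomycin arrays. Replicate 1 was the high array of both groups, by 0.78 and 0.49. The other 10 members of the class had differences from -0.22 (Wdr43) to 0.10 (Heatr1) and an excess of naive replicate 1 from 0.09 (Nob1, the endonuclease of the last cut) to 0.98 (Wdr43).

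Of the 14 measured factors of large subunit assembly, 5 had a difference above 0 and 9 below. Nop16, a nucleolar assembly factor, was at 8.50, 8.42 and 8.21 in naive and 8.66, 8.88 and 8.93 in ionomycin arrays, all of the latter above all of the former. It had the largest difference of the 44, 0.45 ± 0.11 SE or 1.36-fold (limma adjusted p = 0.180, and 0.0341 without both replicate 1 arrays). Rrp1b, a nucleolar protein of large subunit processing, was at 7.88, 8.0 and 8.06 in naive and 7.99, 8.52 and 8.57 in ionomycin arrays. Rrp1b was the one factor whose replicate 1 was the lowest array in the naive group, where 54.4% of all genes have theirs, and it was the lowest in the ionomycin group too, which left a difference of 0.38 ± 0.16 (limma adjusted p = 0.327, and 0.0222 without both replicate 1 arrays).

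Nop2, a cytosine methyltransferase of large subunit RNA, had the lowest difference of the 44. It was at 9.76, 9.21 and 9.02 in naive and 9.12, 8.91 and 9.0 in ionomycin arrays, and the difference of -0.32 ± 0.19 SE (limma adjusted p = 0.416) was -0.11 without naive replicate 1 and -0.16 without both replicate 1 arrays. Pes1, Bop1 and Wdr12 form the PeBoW complex, which acts in large subunit processing, and none of the 3 passed the test. Pes1 was at 10.34, 10.31 and 10.09 in naive and 10.38, 10.43 and 10.50 in ionomycin arrays (0.19 ± 0.09, limma adjusted p = 0.337, and 0.11 without naive replicate 3). Wdr12 was at 8.36, 7.69 and 7.58 in naive and 7.68, 7.51 and 7.61 in ionomycin arrays (-0.28 ± 0.20, limma adjusted p = 0.499), and without naive replicate 1 its difference was -0.039. Bop1 differed by -0.17 ± 0.19. Groups overlapped for Wdr12 and Bop1 and did not for Pes1. The other 8 large subunit factors lay between -0.21 (the helicase gene Ddx18) and 0.13 (Rrs1).

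The last class holds 4 nucleolar proteins of many functions. Npm1, the chaperone nucleophosmin, was at 11.84, 11.49 and 11.64 in naive and 11.77, 11.63 and 11.61 in ionomycin arrays (0.01 ± 0.10 SE, limma adjusted p = 0.955). Ncl, the nucleolin gene, Ddx21, an RNA helicase, and Mybbp1a differed by -0.01, 0.07 and 0.10. In all 4 genes replicate 1 was the highest array of both groups, with an excess from 0.27 to 0.58 in naive and from 0.14 to 0.45 in ionomycin cells.

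A longer list of 104 other ribosome biogenesis genes was read in the same fit, and 99 of them were measured. With limma 0 of the 99 passed in either direction, where 0.349% of all genes did. At an unadjusted p under 0.05 4 were higher and 6 lower, against 15.6% of all genes in either direction. Of their differences 30 were above 0 and 69 below, with a median of -0.07. Ionomycin was below naive at all 3 replicate numbers for 38 of the 99, against 16.8% of all genes and 5 of the 44 factors. Of all genes within the factors' signal range 32.2% were below at all 3, which is nearer to the share of the longer list. Naive replicate 1 was the highest naive array for 72 of the 99, with a median excess of 0.21. Ionomycin replicate 1 was the highest of its group for 59, with 0.06. These shares were 27.8% and 33.3% over all genes, and 44.7% and 47.5% within the factors' signal range. In the longer list, too, naive replicate 1 was most often the highest of the naive arrays.

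Gtpbp4, a GTPase of large subunit assembly, had the largest difference of the longer list, 10.50, 10.60 and 10.72 in naive against 11.05, 11.25 and 11.34 in ionomycin arrays. All ionomycin arrays were above all naive arrays, by 0.60 ± 0.10 SE (limma adjusted p = 0.0832), and Gtpbp4 passed with the replicate block (limma adjusted p = 0.0394). Next came Taf1a (0.43) and the nucleolar methyltransferase gene Rrp8 (0.37), and the lowest were Naf1, an assembly factor of box H/ACA particles (-0.39), Taf1b (-0.38) and Rpf1 (-0.37). Taf1a and Taf1b encode subunits of the same initiation factor of RNA polymerase I. Their limma adjusted p were 0.292 and 0.160. With the block of 2 levels Taf1b, Naf1 and Rrp8 passed as well as Gtpbp4 (limma adjusted p = 0.0352, 0.0348, 0.0437 and 0.0105), where 4.72% of all genes did. Without naive replicate 1 Rpf1 was at -0.17, and without ionomycin replicate 1 Taf1a was at 0.25.

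Myc was at 9.21, 9.53 and 9.16 in naive and 9.78, 9.46 and 9.28 in ionomycin arrays (0.20 ± 0.16 SE, limma adjusted p = 0.522). Without 1 array the Myc difference ran from 0.07 (without ionomycin replicate 1) to 0.32 (without naive replicate 2). Its naive replicate 1 was not the highest naive array, so Myc did not have the pattern of 42 of the factors there, while ionomycin replicate 1 was the highest of its group.

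The core site bound by MYC and related factors is the palindrome CACGTG, which reads the same on both strands. RefSeq promoters of build GRCm38.p6, from 250 bases before to 50 bases after a gene's start, were found for 39 of the 44 measured factors. The motif was present in 9 of the 39 (23.1%), where 8.09% of the 27025 genes in the promoter set used here hold it. That set leaves out the promoters of a chromosome and was not matched to the factors for signal. In Nop2 and Utp18 it begins 60 and 20 bases before the start, and in the other seven within the first 50 transcribed bases. The sites are shown to let the sequence around the motif be read; each is given 5′ to 3′ on the gene's strand with the motif in capitals.
Nop2 (chr6:125131811-125131840, + strand): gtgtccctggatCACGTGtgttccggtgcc
Utp18 (chr11:93885769-93885798, - strand): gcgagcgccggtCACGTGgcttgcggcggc
Pes1 (chr11:3963965-3963994, + strand): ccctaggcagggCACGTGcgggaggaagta
Wdr43 (chr17:71616220-71616249, + strand): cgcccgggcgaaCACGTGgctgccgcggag
Tsr1 (chr11:74898092-74898121, + strand): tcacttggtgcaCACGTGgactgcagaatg
Ltv1 (chr10:13193092-13193121, - strand): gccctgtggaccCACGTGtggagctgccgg
Grwd1 (chr7:45830740-45830767, - strand): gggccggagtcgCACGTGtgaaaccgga
Utp20 (chr10:88826765-88826789, - strand): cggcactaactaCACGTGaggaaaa
Mybbp1a (chr11:72441355-72441376, + strand): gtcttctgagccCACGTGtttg
The excess of naive replicate 1 ran from 0.14 (Grwd1) to 0.98 (Wdr43) over the 9 factors with the motif. Its median was 0.64 over these 9 and 0.45 over the 30 without it, and the median differences between the groups were 0.09 and -0.02. A match of these letters is no evidence of binding.

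Markers of other cells were read beside the replicate 1 pattern. Both basophil markers, Mcpt8 and Prss34, were highest in replicate 1 of each group. Mcpt8 was at 10.36, 9.20 and 9.03 in naive and 10.60, 9.14 and 9.11 in ionomycin arrays, and Prss34 at 10.35, 8.94 and 8.70 and at 10.70, 8.85 and 8.60. Their summed linear signal ran from 938 to 2617 in the naive and from 941 to 3225 in the ionomycin group, with replicate 1 the upper end of each. Both markers were above background. The 6 macrophage markers did not move together: 4 of the 6 had their highest naive value in replicate 1, and 1 of the 6 their highest ionomycin value. Their summed signal was 2543 in naive replicate 1 against 5050 and 4525 in the other naive arrays, and 2726 in ionomycin replicate 1 against 3987 and 3447. That sum moves with Cd68, the marker with the highest signal, at 10.49, 11.99 and 11.87 in naive and 10.67, 11.47 and 11.37 in ionomycin arrays. The 10 mast cell markers summed to between 80938 and 84342 in naive and between 77303 and 79222 in ionomycin arrays, a sum carried by Cpa3, Tpsb2 and Cma1 (means 14.24, 14.06 and 13.56). Under it the markers went both ways: against naive replicates 2 and 3, naive replicate 1 was at -0.86 for Hdc, 0.61 for Mitf and 0.39 for Ms4a2, and it was the highest naive array for 5 of the 10 and the lowest for 3.

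The other marker lists had lower signals. Of the neutrophil, dendritic cell, T cell, B cell and erythroid markers, 6 of 8, 1 of 4, 2 of 4, 2 of 3 and 1 of 2 measured were above it, with means up to 7.5. Naive replicate 1 was the lowest naive array for 4 of 4 T cell, 2 of 3 B cell and 2 of 2 erythroid markers, and for 3 of 8 neutrophil and 2 of 4 dendritic cell markers. Over all genes it was the lowest for 54.4%. Their summed linear signals over the 6 arrays ran from 694 to 762 (neutrophil), 241 to 403 (dendritic cell), 233 to 280 (T cell), 196 to 232 (B cell) and 123 to 141 (erythroid). All 4 dendritic cell markers were higher in the ionomycin array at all 3 replicate numbers, against 35.8% of all genes. So were 3 of 3 B cell, 3 of 4 T cell, 4 of 8 neutrophil and 1 of 2 erythroid markers. Of the 4 dendritic cell markers none passed, and Flt3, Zbtb46 and Xcr1 lay below background. Itgax, an integrin gene, had a difference of 0.67 (limma adjusted p = 0.216). In bulk RNA fewer cells of a type and less RNA per cell cannot be told apart, and the part of these cells in the replicate 1 pattern was not tested.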

How the data were processed

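Values are the log2 signals deposited by the authors for 6 arrays, 65770 rows with 0 missing values. The submitters' processing notes name the R package oligo. How probes were summarized and normalized, and on which build, is not given in the sources used here. Array medians over all rows ran from 5.88 to 6.03. The number of arrays limits the precision. Rows with 1 symbol (30439) were named through the platform annotation, and the row with the highest mean was kept per gene. Groups and replicate numbers come from the titles.

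Differences between ionomycin and naive arrays were fitted in limma 3.58.1 (R 4.3.3, lmFit, eBayes, no block, no filter), two-sided, with Benjamini-Hochberg adjustment over 30102 genes. The code of the fit was tried on simulated arrays with independent noise. These had no shift shared by the replicate 1 arrays, so the trial does not show how the fit behaves with one. Errors are moderated SE. Replicate 1 was set against replicates 2 and 3 without a test. Same-numbered arrays deviated together (correlations 0.711, 0.476 and 0.469 for numbers 1, 2 and 3). Each exceeds the 0.1 set beforehand for using the number as a block. Deviations are from the group mean, so a replicate 1 shift shared by the groups can alone give positive values for numbers 2 and 3. The 0.1 rule is therefore no test of their pairing. The crossed values of numbers 2 and 3 were as high (0.524 for naive 2 with ionomycin 3, 0.481 for naive 3 with ionomycin 2), so only number 1 stands apart and numbers 2 and 3 are not shown to pair. The blocked value is given where it changes a call. The members, lists and alternatives were chosen with earlier results of these data known.

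Named were members past the threshold with or without the block, the 6 largest and 6 lowest differences, the brightest member of each role, and the 6 with the largest replicate 1 deviation; of the longer list, those past the threshold and the 3 largest and lowest differences; Myc in every case; and, chosen after their values were seen, members that complete a role class, a complex or a range, or that hold the motif.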

Additional observations from a re-analysis of the deposited data

How the results depend on the processing

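With the replicate block the counts were 0 of the 44 factors, 1 gene of the longer list (higher), and 119 higher and 33 lower over all genes. With the block of 2 levels 1 factor was higher (Rrp12), 2 genes of the longer list were higher and 2 lower, and 677 and 744 of all genes. Quantile normalization gave 1 factor higher (Rrp12), and 88 higher and 27 lower over all genes. Centring gave 32 of all genes lower, and a robust eBayes fit with a trend gave 9. Array weights gave 4 factors higher, 4 genes of the longer list higher and 4 lower, and 2240 and 1654 of all genes. Without replicate 1 of both groups these counts were 4 factors and 1 gene of the longer list higher, and 423 and 429 of all genes. Without 1 array, 0 factors and 0 genes of the longer list passed in either direction, all genes ranged from 1 to 95 higher and from 0 to 55 lower, and the factors' median difference from -0.09 (without naive replicate 3) to 0.15 (without naive replicate 1).

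The differences of 9 genes changed sign, among them Dkc1, whose reported difference was -0.23. Under quantile normalization Npm1 was at -0.037 and Nolc1 at 0.025; after centring Polr1c was at -0.017 and Npm1 at -0.053. With array weights Nop58 was at 0.088, Nolc1 at 0.054, Polr1a at 0.040 and Myc at -0.00029. Without 1 array the ranges were -0.28 to 0.39 for Nop58, -0.47 to 0.16 for Dkc1, -0.25 to 0.29 for Nolc1, -0.32 to 0.25 for Polr1a, -0.071 to 0.10 for Npm1, -0.046 to 0.38 for Ltv1 and -0.085 to 0.31 for Fbl. Without replicate 1 of both groups Nop58 was at 0.17, Dkc1 at 0.014, Nolc1 at 0.18 and Polr1a at 0.17. None of these 9 genes passed in the fit reported or in the settings just named. Over the named genes, 374 values under other settings kept direction and side of the threshold, 20 newly passed and 26 changed sign. The cause of the changes was not tested.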
